A study of Sus scrofa with 5 samples.

Results

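The nuclei described here came from the abdominal aorta of Ossabaw pigs and carried transcripts of macrophages together with genes of lipid-laden foam cells. A nucleus with at least 300 detected genes was counted as macrophage-gated when at least 3 of 11 macrophage genes had 1 or more UMI (CD163, CSF1R, MSR1, SLC11A1, F13A1, TRPM2, GPR183, CD83, SRGN, RGS1 and P2RY12). It was counted as foam-gated when, in addition, at least 2 of 6 foam-cell genes had 1 or more UMI (SPP1, GPNMB, MCOLN3, ATP6V0D2, LPL and NYAP2). This gave 1325 foam-gated nuclei among 45505 nuclei in all, and 539 other macrophage-gated nuclei with fewer than 2 of the 6 genes. A UMI is a tag that marks 1 captured RNA molecule, so the values counted here are molecules and not reads. The members were thus chosen by the measured UMIs of the 17 panel genes, and their levels in the members are given as a description with no test. The 6 foam-cell genes stayed among the genes tested between diets, and nothing is read from their calls there.

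Libraries were made from 3 pigs fed a diet labelled HF/HFru (obese replicates 1 to 3) and 2 pigs fed chow (control replicates 1 and 2). All were castrate males of the Ossabaw strain that entered the diet at an age of 12 months, and the diet lasted 6 months by the sample labels but 9 months by the series description. A frozen piece of vessel of about 50 mm was used per sample, nuclei stained with DRAQ5 were sorted, and each sample had its own 10x Genomics 3' reaction, so the shares below describe captured nuclei. The series title calls the aortae atherosclerotic and healthy, but lesion size and lipid content were not analysed here, and foam-gated is the name of a transcript pattern. The labels name the libraries as replicates and are read as 1 pig each, and p-values measure the spread between these samples.

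Foam cells are macrophages that take up modified lipoproteins, break them down in the lysosome and store the cholesterol as ester droplets. They are a hallmark of the atherosclerotic plaque, where they export part of that cholesterol through transporters that the LXR receptors switch on. GPNMB, MCOLN3 and ATP6V0D2 belong to the endolysosomal compartment, LPL releases fatty acids from lipoproteins, and SPP1 encodes the secreted protein osteopontin.

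Members came only from the obese pigs, and obese replicate 2 supplied most of them. They numbered 221, 1042 and 62 in obese replicates 1 to 3, against 0 and 0 in control replicates 1 and 2. The obese libraries held 7609, 10106 and 9811 nuclei and the control libraries 12282 and 5697. Foam-gated nuclei had a median of 4263, 5667 and 3333 UMIs in the 3 obese pigs, and the other macrophage-gated nuclei of the same pigs had 2797, 1837 and 2228. Depth therefore differed with the gate, in the same direction in each pig. A cell barcode shared with another library was carried by 18 members, and 0 barcodes were foam-gated in more than 1 library. No UMI of CD163, CSF1R or MSR1 was found in 52, 134 and 12 members of obese replicates 1 to 3. Presumed doublets, the barcodes of highest doublet score, were 9.50%, 16.7% and 12.9% of the members of these pigs. They were 8.82%, 16.7% and 12.8% of the other macrophage-gated nuclei and 6.08%, 8.08% and 7.85% of all nuclei.

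The label was checked against 16 macrophage or leukocyte markers that played no part in the gate. In the foam-gated nuclei of obese replicates 1 to 3, 16, 16 and 15 of them were above 0, with C1QA at 0 in replicate 3. This count is no contrast, since all 16 were also above 0 in the larger pools of smooth muscle-gated nuclei of each obese pig, and the levels are given instead. Levels are given as CPM, the counts of a gene in a class of nuclei scaled to the same total of 1000000 UMIs for each pig and class. The 16 markers summed to 1947, 4145 and 3341 CPM in foam-gated nuclei, against 1601, 2681 and 2331 CPM in the other macrophage-gated nuclei. Nuclei with at least 5 of 10 smooth muscle markers and no macrophage gate had sums of 158, 212 and 215 CPM in the obese pigs. Nuclei gated on T or NK markers had sums of a like size, 2054, 3469.7 and 2600.2 CPM, so the sum set the members apart from smooth muscle and not from T or NK nuclei. CYBB, the NADPH oxidase gene of phagocytes, had 165, 329.5 and 358 CPM in foam-gated nuclei, against 3.05, 6.11 and 2.38 CPM in smooth muscle-gated and 0, 31.0 and 23.6 CPM in T or NK-gated nuclei. MRC1 of the same list was low in foam-gated nuclei, at 4.67, 10.2 and 11.7 CPM. It had 3.05, 3.99 and 1.96 CPM in smooth muscle-gated and 19.6, 0 and 0 CPM in T or NK-gated nuclei. CD68, C1QA, C1QC, TYROBP, FCER1G and AIF1 were at 0 in the T or NK-gated nuclei of each obese pig, in small pools of 51116, 128831 and 42305 UMIs. Those pools are too small to read the zeros as a contrast. CSF1R and MSR1, the receptors for colony-stimulating factor 1 and for modified lipoproteins, were part of the gate and reached 90.3, 135 and 199 CPM and 190.0, 375 and 257 CPM in foam-gated nuclei. Of 7 adipocyte markers 4, 6 and 4 were above 0 in foam-gated nuclei, at sums of 17.1, 14.5 and 35.0 CPM, with ADIPOQ, which defines adipocytes, at 0 in every obese pig. Of 4 neutrophil markers in the files CSF3R had 3.11, 10.2 and 7.79 CPM, and S100A8, S100A12 and MMP8 were at 0.

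Foam-gated nuclei made up 2.90% of all nuclei in obese replicate 1 (95% exact binomial interval 2.54% to 3.31%), 10.3% in replicate 2 (9.72% to 10.9%) and 0.632% in replicate 3 (0.485% to 0.809%). In the control pigs 0 of 12282 and 0 of 5697 nuclei qualified, with upper limits of 0.0300% and 0.0647% by the same exact interval. The obese pigs differed from one another more than the lowest of them differed from the control pigs. Among macrophage-gated nuclei the members formed 61.9% (56.7% to 67.0%), 77.4% (75.0% to 79.6%) and 56.9% (47.1% to 66.3%) in the obese pigs. The control pigs had 0 of 27 and 0 of 24, with upper limits of 12.8% and 14.2%. Macrophage-gated nuclei as a whole were 4.69%, 13.3% and 1.11% of nuclei in the obese pigs and 0.220% and 0.421% in the control pigs. Intervals and upper limits cover counting error only.

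On average, members were 4.62% ± 5.06 of all captured nuclei for the obese group (SD, n = 3) against 0% for the control group (n = 2), and 65.4% ± 10.7 against 0% of macrophage-gated nuclei. Both differences reached p = 0.2 in an exact two-sided permutation test, the smallest value that 10 assignments of 5 pigs allow. Without obese replicate 2 the difference in the share of all nuclei was 1.77 percentage points. After each nucleus was thinned to 1000 UMIs, with shallower nuclei left out, the gate was met by 69 of 5657, 411 of 8049 and 29 of 7509 nuclei in the obese pigs and by 0 of 10324 and 0 of 4908 in the control pigs. The difference was then 2.24 points of all nuclei and 50.6 points of macrophage-gated nuclei.

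**Figure D1:**
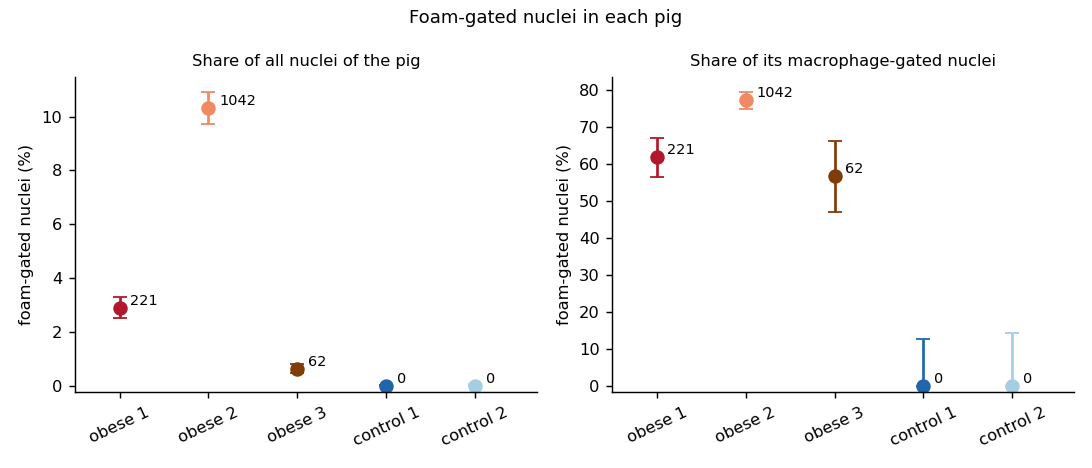
Share of foam-gated nuclei (percent) among all nuclei and among macrophage-gated nuclei, 1 point per pig with its exact binomial 95% interval and the counts behind it. The 3 obese pigs lie between 0.632% and 10.3% of all nuclei and the 2 control pigs at 0.

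Nuclei differed in how many of the 6 foam-cell genes they carried. Among the members of obese replicates 1 to 3, 45.7%, 18.2% and 32.3% carried exactly 2 of the genes, 27.6%, 62.3% and 27.4% carried 4 or more, and 6, 215 and 3 nuclei carried all 6. Obese replicate 2 thus had both the most members and the members with the most panel genes. Just inside the threshold were 101, 190 and 20 nuclei with 2 genes, and just outside it 69, 149 and 21 nuclei with 1 gene. The median depth was 2892, 2498 and 3778 UMIs inside and 2805, 1877 and 1933 UMIs outside. In the control pigs 2 of 27 and 0 of 24 macrophage-gated nuclei carried 1 of the genes and 0 carried more.

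**Figure D2:**
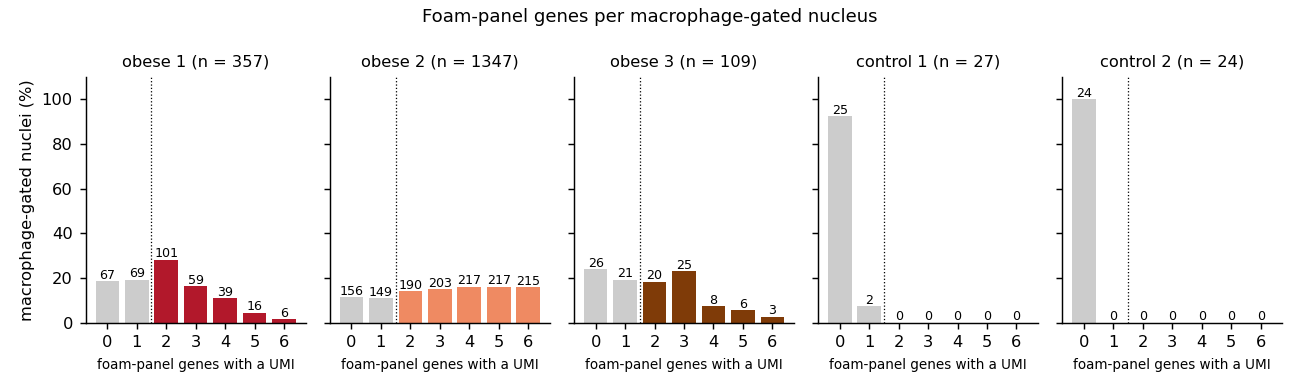
Percent of macrophage-gated nuclei by the number of foam-cell panel genes with a UMI, 1 panel per pig, with nuclei counts on the bars and a dotted line at the threshold. Obese replicate 2 has 215 nuclei with all 6 genes, and the 2 control pigs have none with more than 1.

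MCOLN3, a cation channel of the endolysosome, was the panel gene found in most members, with a UMI in 89.4% of them. GPNMB, a transmembrane glycoprotein induced in lysosomal stress, followed with 77.3% and SPP1 with 69.6%. LPL was found in 51.3%, NYAP2, an adaptor of phosphoinositide 3-kinase known from neurons, in 49.4%, and ATP6V0D2, a subunit of the proton pump V-ATPase used by osteoclasts and macrophages, in 46.3%. The pair MCOLN3 and GPNMB was held by 931 members (70.3%), and the least frequent pair, ATP6V0D2 and LPL, by 380 (28.7%). The pigs differed in this order. SPP1 was found in 79.2%, 67.0% and 79.0% of the members of obese replicates 1 to 3, and GPNMB in 47.1%, 85.1% and 53.2%.

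The levels of the panel genes are those that the gate selected. SPP1 had 705, 845 and 1686 CPM in foam-gated nuclei of obese replicates 1 to 3, against 113, 73.7 and 278 CPM in the other macrophage-gated nuclei. GPNMB had 231, 1127 and 510.1 CPM against 12.6, 109 and 0, and MCOLN3 had 513, 1180.4 and 1090.3 CPM against 124, 149.7 and 159.6. ATP6V0D2 had 76.3, 489 and 206 CPM against 5.38, 1.19 and 6.94. For LPL the values were 121, 452 and 222 CPM in foam-gated nuclei against 5.38, 29.7 and 13.9 CPM, and for NYAP2 108, 733 and 245 CPM against 8.97, 21.4 and 0. Replicate 2 was highest for GPNMB, MCOLN3, ATP6V0D2, LPL and NYAP2 in foam-gated nuclei, and replicate 3 for SPP1. Macrophage panel genes did not all move with the foam genes. CD163, the receptor for haemoglobin and haptoglobin, had 191, 461 and 171 CPM in foam-gated nuclei against 506, 876 and 243 CPM in the others. P2RY12, a receptor for ADP, had 264, 936 and 701 CPM against 124, 469 and 208.

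Genes outside both panels were compared between foam-gated and other macrophage-gated nuclei within the 3 obese pigs. Counts were summed per pig and class, the pig was a block, and edgeR's quasi-likelihood test with Benjamini-Hochberg adjustment was used at an adjusted p under 0.05. The sums held 1284201, 7176633 and 256806 UMIs in foam-gated nuclei, and 557299, 841614 and 144139 UMIs in the others. Of 7348 genes tested, 54 were called (0.735%). In foam-gated nuclei 36 of these were higher (0.49%) and 18 were lower (0.245%). Fold changes below are log2 differences of foam-gated over other macrophage-gated nuclei. Without obese replicate 2 the test called 9 genes and without replicate 3 it called 3, which were CYP7A1, MRC1 and RIPOR2.

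Among the genes that rose were an enzyme of sterol breakdown, a lectin and enzymes that act on nucleotides and lipids outside the cell or in the lysosome. CYP7A1, the rate-limiting enzyme of bile acid synthesis and known from liver, had 50.6, 629.8 and 1160.4 CPM in foam-gated nuclei of obese replicates 1 to 3, against 5.38, 33.3 and 118 CPM in the others. Each pig was higher in foam-gated nuclei, while the classes overlapped across pigs, and the log2 fold change was 3.74 (SE 0.33, edgeR adjusted p = 0.00237). This rise was called without any 1 of the 3 pigs. The CYP7A1 counts came from few nuclei. A UMI was found in 18 of 221, 318 of 1042 and 11 of 62 members (8.14%, 30.5% and 17.7%), against 0.245%, 3.07% and 0.229% of smooth muscle-gated nuclei, whose median depth was 3602, 4015 and 2991 UMIs. In replicate 3 a single nucleus held 125 of the 298 counts, and the level was 689.9 CPM without it. The annotation of Sscrofa11.1 places SDCBP, which encodes syntenin, over CYP7A1 on the opposite strand for 14620 bases, and whether the counting used strand is not given in the sources used here. SDCBP had 489, 445 and 716 CPM in foam-gated nuclei and 404, 316 and 416 CPM in the others (log2 fold change 0.52, edgeR adjusted p = 0.368). TMEM163, SLC37A2 and SLC9A7, named below, also overlap a protein-coding gene on the opposite strand, by 4115, 3434 and 1347 bases. HPGD, RIPOR2 and STXBP5L, also named below, overlap a pseudogene on the same strand, by 2978, 3372 and 5972 bases.

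ENPP1, which splits ATP outside the cell and releases pyrophosphate, an inhibitor of mineral deposition, was found across the members. It had 765, 1454 and 1215 CPM in foam-gated nuclei against 187, 208 and 312 CPM, with no overlap between the classes. The log2 fold change was 2.30 (SE 0.26, edgeR adjusted p = 0.00609). A UMI of ENPP1 was found in 69.7%, 73.7% and 69.4% of members, in 25.7%, 26.6% and 29.8% of the other macrophage-gated nuclei, and in 9.47%, 18.4% and 6.16% of smooth muscle-gated nuclei. LGALS3, which encodes galectin-3, had 295, 793 and 693 CPM against 96.9, 173 and 69.4 CPM (2.26, SE 0.31, edgeR adjusted p = 0.0173). SMPDL3A, a phosphodiesterase related to acid sphingomyelinase and an LXR target in human macrophages, had 246, 569.9 and 771 CPM against 79.0, 109 and 146 CPM (2.15, SE 0.26, edgeR adjusted p = 0.00959). For both genes the lowest foam-gated value lay above the highest of the others. Without obese replicate 3 the adjusted p was 0.095 for ENPP1, 0.111 for LGALS3 and 0.107 for SMPDL3A, at log2 fold changes of 2.48, 1.97 and 2.09. With each nucleus thinned to 1000 UMIs before gating, the log2 fold changes were smaller, at 1.51 for CYP7A1, 1.33 for ENPP1, 1.49 for LGALS3 and 1.67 for SMPDL3A, and all 4 genes were called.

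Regulators, receptors and transporters were also among the higher genes. PPARG, the nuclear receptor for fatty acid ligands, had 261, 731 and 479 CPM in foam-gated nuclei against 117, 236 and 62.4 CPM (log2 fold change 1.76, SE 0.31, edgeR adjusted p = 0.0414). CALCR, the calcitonin receptor known from osteoclasts, had 58.4, 360.1 and 167 CPM against 16.1, 54.7 and 76.3 CPM (2.08, SE 0.36, edgeR adjusted p = 0.0386). SLC37A2, a sugar-phosphate exchanger, had 125, 437 and 280.4 CPM against 46.7, 65.4 and 83.3 CPM, and the zinc transporter gene TMEM163 had 104, 379 and 195 CPM against 37.7, 27.3 and 41.6 CPM. PPARG, SLC37A2 and TMEM163 showed no overlap between the classes. For CALCR the foam-gated value of replicate 1 lay below the other value of replicate 3. The other rises named by size were JAKMIP3 (3.18), the tetraspanin gene CD82 (2.53) and STXBP5L (2.15), a regulator of vesicle fusion, with edgeR adjusted p from 0.0384 to 0.0396. JAKMIP3 had 7 counts in the others and passed the low-count filter through foam-gated nuclei alone, so it could only be called higher. CD82 too needed the foam-gated nuclei to pass, since among the others only replicate 3 was high enough. For STXBP5L the foam-gated value of replicate 1 (75.5 CPM) lay below the other value of replicate 2 (171 CPM). HK2, the hexokinase that traps glucose in the cell, rose by 1.69 (156, 328 and 327 CPM against 43.1, 121 and 90.2 CPM). CYBB rose by 1.56 (165, 329.5 and 358 CPM against 46.7, 165 and 83.3 CPM). Of these, PPARG, CALCR, SLC37A2, TMEM163, CD82 and CYBB lost the call when 1 or more UMI of CD163, CSF1R or MSR1 was also required, at edgeR adjusted p from 0.0527 to 0.0791, while CYP7A1, ENPP1, LGALS3, SMPDL3A, STXBP5L and HK2 did not. With presumed doublets left out 14 genes were called, all among the 54, and the calls of STXBP5L, LGALS3, PPARG, TMEM163, CD82, CALCR, SLC37A2 and CYBB ended at edgeR adjusted p from 0.0507 to 0.0687.

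The 10 largest falls were led by MRC1, the mannose receptor CD206 of resident and alternatively activated macrophages. It had 4.67, 10.2 and 11.7 CPM in foam-gated nuclei, against 62.8, 265 and 20.8 CPM in the other macrophage-gated nuclei and 552 and 267 CPM in the macrophage-gated nuclei of the control pigs. The log2 fold change was -4.05 (SE 0.54, edgeR adjusted p = 0.014), and the classes did not overlap. In replicate 3 this rested on 3 counts in 1 member and 3 counts in 3 of the other nuclei. Without presumed doublets the MRC1 value was -4.14 (edgeR adjusted p = 0.0507). MRC1, and HPGD, CAMK4 and SLC9A7 named below, passed the low-count filter through the other macrophage-gated nuclei alone. These genes could only be called lower. COLEC12, a scavenger receptor of the collectin family, had 31.1, 30.2 and 7.79 CPM against 115, 280.4 and 159.6 CPM (-2.82, SE 0.39, edgeR adjusted p = 0.0173). TBXAS1, which makes thromboxane, fell by 2.51 (10.9, 24.2 and 15.6 CPM against 100.5, 72.5 and 194 CPM), and HPGD, which inactivates prostaglandins, fell by 3.35 (7.79, 5.57 and 11.7 CPM against 48.4, 44.0 and 430.1 CPM). Both had lower values in foam-gated nuclei of every pig with no overlap. A UMI of TBXAS1 was found in 5.88%, 12.7% and 6.45% of members and in 12.5%, 10.2% and 14.9% of the others, so replicate 2 differed in direction. HPGD counts of the others came from 8, 16 and 6 nuclei, with 22 of 62 counts of replicate 3 in 1 nucleus. CYRIA, an inhibitor of RAC1 signalling, fell by 2.33, and EMILIN2, a glycoprotein of the extracellular matrix, fell by 2.04. EMILIN2 had 45.2, 12.8 and 101 CPM against 226, 84.4 and 173 CPM, lower in each pig while the classes overlapped across pigs. The class II antigen gene SLA-DQB1 fell by 1.68 (21.8, 32.3 and 85.7 CPM against 82.5, 132 and 159.6 CPM, edgeR adjusted p = 0.047), a value that near-identical class II genes could share.

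Lymphoid genes stood beside these falls. SKAP1, an adaptor of the T cell receptor, had 26.5, 6.27 and 7.79 CPM in foam-gated nuclei against 100.5, 63.0 and 139 CPM (log2 fold change -2.83, SE 0.41, edgeR adjusted p = 0.0232). CAMK4, a calcium-dependent kinase of T cells and neurons, fell by 2.89, and RIPOR2, known from lymphocytes and neutrophils, fell by 3.10. The 10 T or NK markers summed to 40.5, 32.3 and 15.6 CPM in foam-gated nuclei, against 151, 129.5 and 249.8 CPM in the others, with CD3D at 0 in foam-gated nuclei of all 3 pigs. In nuclei gated on T or NK markers that sum was 5086, 6039 and 7233 CPM. When CD163, CSF1R or MSR1 was also required, SKAP1 had a log2 fold change of -1.38 (edgeR adjusted p = 0.366), CAMK4 -1.99 (0.223) and RIPOR2 -2.33 (0.0527), and the calls of MRC1, COLEC12, TBXAS1, HPGD and CYRIA were kept. In replicate 3, SKAP1 had 19 of its 20 counts in 1 other macrophage-gated nucleus, CAMK4 had 26 of 33 and RIPOR2 19 of 27 in 1 such nucleus, and SLC9A7, a Golgi ion exchanger that fell by 3.31, had 27 of 39.

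**Figure D3:**
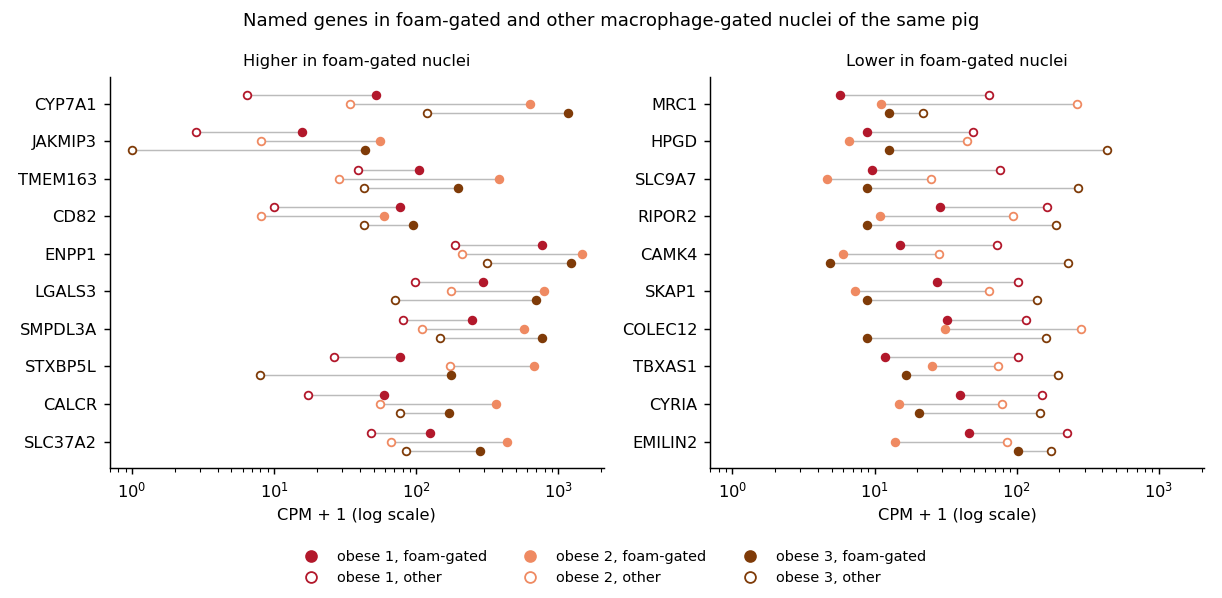
CPM + 1 on a log axis for the 10 largest called rises and the 10 largest called falls, with foam-gated nuclei as filled points and other macrophage-gated nuclei as open points, 1 pair per obese pig. ENPP1 has foam-gated values of 765 to 1454 CPM above other values of 187 to 312 CPM, and MRC1 has 4.67 to 11.7 CPM below 20.8 to 265 CPM.

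Genes of lipid storage and cholesterol efflux outside the panel had mostly positive values that did not pass the test, with 1 call. Of 14 tested genes of lipid droplets and fatty acid handling 0 were called, and 12 had positive log2 fold changes at a median of 0.79, beside a median of -0.05 and 45.9% positive over all genes tested. NCEH1, which frees cholesterol from stored esters, had 317, 757 and 557 CPM in foam-gated nuclei against 176, 364 and 187 CPM (1.14, edgeR adjusted p = 0.0667). SOAT1, which makes those esters, had 199, 267 and 276 CPM against 140.0, 178 and 111 CPM (0.75, edgeR adjusted p = 0.241). Of 13 tested LXR targets and efflux genes, SMPDL3A was the 1 called, and the median was 0.61. ABCA1, the cholesterol exporter, had 686, 902 and 1297 CPM against 544, 529 and 583 CPM (0.75, edgeR adjusted p = 0.187), with overlap-free values that did not pass the test. Of the 23 genes of cholesterol synthesis and SREBP2 control only 3 had enough counts to be tested and 0 were called, with 1 above 0 and a median of -0.41, among them INSIG1 (0.44) and SREBF2 (-0.41). Scavenger and lipoprotein receptors outside the gate had 0 of 8 called at a median of 0.24, with SCARB2, a lysosomal membrane receptor, at 1.38 (edgeR adjusted p = 0.0794) and SCARB1, which takes up HDL cholesterol, at 0.34.

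Lysosomal genes showed the same pattern of small positive values. Of 23 tested hydrolases and membrane proteins 0 were called and 20 were above 0, at a median of 0.54. Over all genes tested 0.735% were called and 45.9% were above 0. Macrophage markers outside the rule had 8 of 13 above 0 at a median of 0.23, and the part of a general shift toward macrophage transcripts was not tested. CTSB and CTSS, lysosomal proteases, had log2 fold changes of 0.85 and 1.09 (edgeR adjusted p = 0.187 and 0.0902). Of 11 tested V-ATPase subunits outside the panel 0 were called, with a median of 0.60, and ATP6V0A1 had 0.80. In the list of MiT/TFE factors, which drive lysosomal genes, and their signalling partners, PPARG was the 1 call among 15, at a median of 0.45. MITF itself had 985, 2737 and 1375 CPM in foam-gated nuclei against 615, 1154 and 673 CPM (1.00, edgeR adjusted p = 0.0743). Among 9 tested osteoclast genes CALCR was the 1 call (median 0.48). Of 12 tested genes of the TREM2 pathway and of lipid-associated macrophages, LGALS3 was the 1 call (median 0.61). TREM2, the lipid receptor for which that state is named, was too low to be tested, at 10.9, 26.5 and 11.7 CPM against 1.79, 9.51 and 6.94 CPM.

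**Figure D4:**
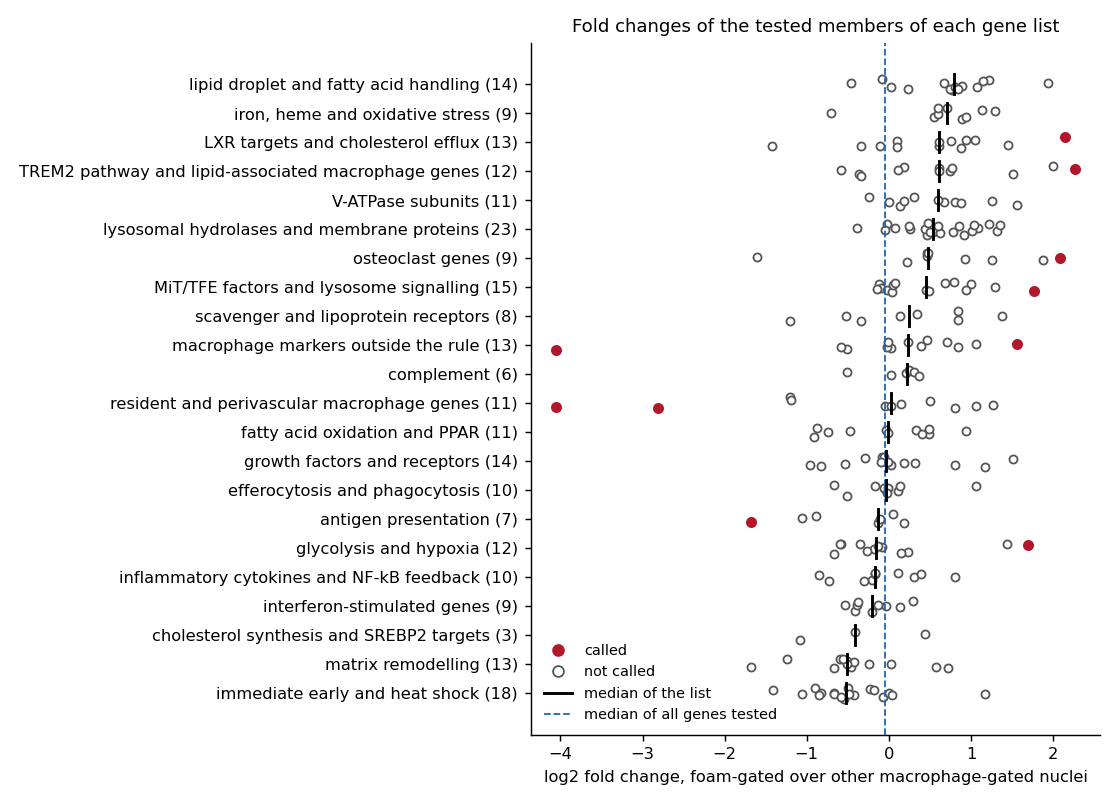
Log2 fold changes of foam-gated over other macrophage-gated nuclei for the tested genes of each list, with called genes in red, the list median as a black bar and the median of all genes tested (-0.05) as a dashed line. Medians of the lipid droplet, LXR and V-ATPase lists are 0.79, 0.61 and 0.60, with 0, 1 and 0 genes called.

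Other macrophage programmes had 0 to 2 calls each, beside 0.735% called and 45.9% above 0 over all genes tested. Of 11 tested genes of resident and perivascular macrophages 0 rose and 2 fell, MRC1 and COLEC12, at a median of 0.03. MERTK, a receptor for dying cells, had 1.06 (edgeR adjusted p = 0.0892). Inflammatory cytokines and NF-kB feedback genes had 0 of 10 called (median -0.17, NFKBIZ -0.73 and TNFAIP8 0.39), and interferon-stimulated genes 0 of 9 (median -0.20, with MX2 at 0.29). In antigen presentation SLA-DQB1 was the 1 call among 7 (median -0.13), and CD74, the class II chaperone, had -1.06 (edgeR adjusted p = 0.103). The counts of called genes were 0 of 6 for complement (median 0.22, with 5 above 0), 0 of 13 for matrix remodelling (-0.51), 0 of 14 for growth factors and receptors (-0.03), 0 of 11 for fatty acid oxidation (-0.01) and 0 of 10 for efferocytosis (-0.03). Glycolysis and hypoxia genes had 1 call of 12, HK2, at a median of -0.16. Iron, heme and oxidative stress genes had 0 of 9 called at a median of 0.71 and 8 above 0, with the antioxidant regulator NFE2L2 at 0.60. Immediate early and heat shock genes had 0 of 18 called at a median of -0.52, and 0 cell cycle genes had enough counts to be tested.

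Several genes also varied with the number of foam-cell genes a nucleus carried, in the obese pigs. These values describe the gate and carry no test, since bins share pigs and depth differed between bins. SMPDL3A had 28.6, 38.5 and 92.2 CPM at 0 panel genes in obese replicates 1 to 3, and 337, 727 and 1137 CPM at 5 to 6 panel genes. PPARG had 85.8, 152 and 41.0 CPM at 0 genes, and 392, 899 and 784 CPM at 5 to 6. ENPP1 reached 839, 2023 and 647 CPM at 5 to 6 genes, with its highest value at 4 genes in replicates 1 and 3. Replicate 3 had few nuclei there, 8 with 4 genes and 9 with 5 to 6. MRC1 ran the other way in replicate 2, with 349 CPM at 0 genes, 183 at 1, 29.9 at 2 and 7.57 at 5 to 6. In replicate 1 it stood at 105 CPM at 0 genes and at 8.25 CPM or less in every other bin. In replicate 3, with 6 counts in all, it had 20.5, 21.5 and 41.5 CPM at 0, 1 and 2 genes and 0 above.

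**Figure D5:**
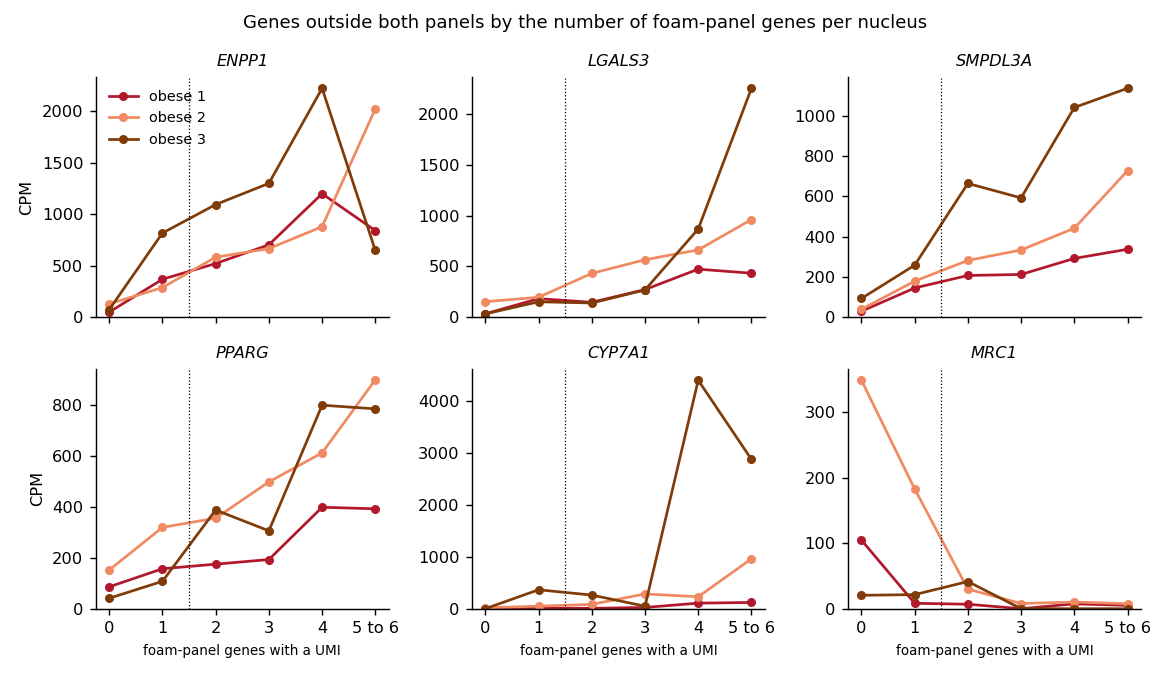
CPM of 6 genes against the number of foam-cell panel genes with a UMI (0, 1, 2, 3, 4, 5 to 6) in macrophage-gated nuclei, 1 line per obese pig. SMPDL3A and PPARG are higher at 5 to 6 panel genes than at 0 in all 3 pigs, and the bins of obese replicate 3 at 4 and at 5 to 6 hold 8 and 9 nuclei.

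Transcripts of other cell types were present in the members. At least 3 of 10 smooth muscle markers were found in 65.6%, 32.1% and 46.8% of foam-gated nuclei, against 55.1%, 38.4% and 38.3% of the other macrophage-gated nuclei. Their summed level was 4259, 1118 and 2858 CPM in foam-gated nuclei and 3709, 3125 and 3295 CPM in the others, so the direction differed between pigs. Of the 9 smooth muscle markers tested 0 were called (median -0.47). T or NK-gated nuclei carried such transcripts too, with at least 3 of the markers in 45.8%, 23.3% and 31.2%. Their gate asked for at least 3 of 10 T or NK markers and fewer than 5 smooth muscle markers. Macrophage-gated nuclei had no such cap, so these shares are not comparable with those of the members. Endothelial markers had 0 of 5 called (median 0.64), fibroblast markers 0 of 4 (-0.68), pericyte markers 0 of 4 (-0.68) and B or plasma cell markers 0 of 4 (-0.05). At least 3 endothelial markers were found in 9.95%, 20.2% and 3.23% of foam-gated nuclei against 5.15%, 1.97% and 4.26% of the others, higher in replicates 1 and 2 and lower in replicate 3. At least 3 of 9 B or plasma cell markers were found in 19.0%, 28.2% and 8.06% of foam-gated nuclei against 10.3%, 7.21% and 2.13% of the others. These shares are not scaled for depth, which was higher in the members, and the summed levels were lower in foam-gated nuclei of each pig. Endothelial markers summed to 741, 541 and 689 CPM against 827, 661 and 819 CPM in the others. B or plasma cell markers summed to 1388, 1245 and 954 CPM against 1428, 1660 and 992 CPM. The part of both lists in the results was not tested. Dendritic markers summed to 81.0, 65.9 and 164 CPM in foam-gated nuclei and 159.7, 125 and 416 CPM in the others. FLT3, their receptor tyrosine kinase, had a log2 fold change of -3.12 (edgeR adjusted p = 0.0638). With nuclei of 3 or more smooth muscle markers left out, the comparison of foam-gated with other nuclei called 91 genes of 3117 tested, of which 35 were among the 54.

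All macrophage-gated nuclei were also compared between obese and control pigs, where the control side was small. It held 27 and 24 nuclei with 128660 and 108474 UMIs, against 1841500, 8018247 and 400945 UMIs in the obese pigs. The foam-cell panel was nearly absent from it. SPP1 had 968, 6126 and 473 counts in the obese pigs and 0 and 0 in the control pigs, and was at least 58.3-fold higher in pooled counts, against 3 counts over the control group. By the same floor MCOLN3 was at least 74.2-fold, NYAP2 at least 42.3-fold and ATP6V0D2 at least 28.2-fold higher. Obese replicate 2 held most of these counts, and without it the bounds were 50.8-fold for SPP1, 36.3-fold for MCOLN3, 7.30-fold for NYAP2 and 5.46-fold for ATP6V0D2. GPNMB had 304, 8182 and 131 counts against 1 and 0, and LPL 158, 3269 and 59 counts against 2 and 0. The ratios of pooled CPM were 199 for GPNMB (counting interval 35.7 to 7867) and 40.3 for LPL (11.1 to 333), and without obese replicate 2 they were 46.0 (8.21 to 1821) and 11.5 (3.14 to 95.3). Floors and counting intervals, here and below, take each UMI as independent. Counts came in clusters, with 5.17, 8.69 and 8.84 SPP1 counts per foam-gated nucleus with a UMI in obese replicates 1 to 3. As limits over nuclei or pigs the bounds are thus too high and the intervals too narrow.

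Outside the macrophage panel edgeR's quasi-likelihood test called 52 of 6237 genes in that comparison (0.834%), of which 22 were higher (0.353%) and 30 lower (0.481%) in obese pigs. The 22 include SPP1 and MCOLN3 of the foam-cell panel, whose UMIs chose the members. Nothing is read from these calls, which are part of the counts above. The genes with the largest rises had no count in control macrophage-gated nuclei, so they passed the low-count filter through the obese pigs alone. They could only be called higher, and 418 of the 6237 genes tested had 3 or fewer control counts. FRMD5 had 770, 11247 and 369 counts in obese pigs against 0 and 0, at least 95.4-fold higher (edgeR adjusted p = 0.0196). It was found in both obese classes, with 495, 1518 and 1106 CPM in foam-gated nuclei and 240.4, 417 and 589.7 CPM in the other macrophage-gated nuclei (log2 fold change 1.30, edgeR adjusted p = 0.0579). SHISA9, an auxiliary protein of AMPA receptors in neurons, had 524, 10412 and 331 counts against 0 and 0, at least 86.8-fold higher (edgeR adjusted p = 0.0287). DNAI3 was at least 29.6-fold higher (222, 3490 and 125 counts against 0 and 0, edgeR adjusted p = 0.0398). These bounds are for pooled counts, and without obese replicate 2 they were 40.1-fold for FRMD5, 30.1-fold for SHISA9 and 12.2-fold for DNAI3. Among the 5 largest falls were PSTPIP2, an actin-linked adaptor of myeloid cells (-4.67, SE 0.58), GCNT3, a mucin glycosyltransferase (-4.91, SE 0.56), and the adhesion receptor gene ADGRG1 (-5.30, SE 0.75). PSTPIP2 had 21.2, 6.24 and 12.5 CPM in obese pigs and 319 and 378 CPM in control pigs. BEND4 (-5.91) and ADGRG3 (-5.76) had 17 control counts each, 12 and 5 in control replicates 1 and 2. All 5 of these falls passed the low-count filter through the control pigs alone, so they could only be called lower. Without control replicate 1 or without control replicate 2 the test called 0 genes, and 1063 and 1216 genes had an unadjusted p under 0.05.

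The genes that set foam-gated nuclei apart within obese pigs had these values in the diet comparison, which uses the same obese nuclei. ENPP1 had 590.3, 1323 and 890.4 CPM in obese pigs against 7.77 and 9.22 CPM, a pooled ratio of 139 (counting interval 38.6 to 1150). LGALS3 had a ratio of 74.6 (20.7 to 617) and SMPDL3A one of 55.0 (15.2 to 454). Each rested on 2 control counts, and without obese replicate 2 the ratios were 76.4 (21.1 to 631), 32.8 (9.05 to 272) and 30.6 (8.44 to 253). MRC1 had 22.3, 36.9 and 15.0 CPM in obese pigs and 552 and 267 CPM in control pigs (log2 fold change -3.90, SE 0.50, edgeR adjusted p = 0.0193). CTSD, a lysosomal protease, had 335, 551 and 309 CPM against 31.1 and 27.7 CPM (3.82, SE 0.53, edgeR adjusted p = 0.0206), and within the obese pigs 388, 587 and 424 CPM in foam-gated against 214, 246 and 104 CPM in other nuclei (1.31, edgeR adjusted p = 0.0637).

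The 250 bases before the annotated start of the 6 foam-cell panel genes and of PPARG were searched on both strands for 3 E-box type motifs, in the RefSeq annotation of Sscrofa11.1. CACGTG was in 6.39% of 19556 windows of this length before protein-coding genes, TCATGTG in 1.93% and GTCACGTG, which contains the first, in 2.00%. None of the 3 was in any of the 7 windows.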

How the data were processed

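The files hold unnormalized UMI counts for each gene and nucleus barcode, which the authors deposited after running Cell Ranger, named as version 5.0 in the submitters' processing notes and 7.1.0 in the file headers, with a pig genome build named Sscrofa11 in the labels. The matrices list 35670 features, of which 17508 carry a symbol in the files and 220 more were named from a gene table. Barcodes with at least 300 genes were kept, 45505 of 45580. The members, the gene lists and the tests were chosen with earlier results of these data known.

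Counts were summed per pig and class and tested with edgeR 4.0.16 in R 4.3.3 (TMM factors, filterByExpr, quasi-likelihood F-test, Benjamini-Hochberg adjustment over all genes tested), with the pig as a block within obese pigs and without it between diets. A class of a pig entered with at least 20 nuclei. Fits with a lone control pig take its spread from the obese group. The 17 panel genes were left out of the counts of called genes within obese pigs and the 11 macrophage panel genes between diets. The steps were tested on simulated data at a fixed dispersion of 0.05. There the test within obese pigs recovered 24% of 2-fold and 86% of 4-fold changes, with 3 false calls. Between diets it recovered 10% and 59%, also with 3 false calls. A list with 0 calls therefore does not show that its genes were unchanged. Genes were named by one rule, which took the 10 largest rises and falls that moved the same way in each pig with at least 20 counts, and up to 4 called members per list or else the 2 of highest CPM. ABCA1, MITF, MERTK, CD74, CTSD, SDCBP, TREM2 and the genes listed after the report were chosen for their role after their values were seen. Doublets were scored with Scrublet in scanpy 1.11.5. Its automatic threshold marked 2 barcodes, so doublets were kept, and the 3517 barcodes of highest score were left out as an alternative. Replicate numbers only name samples between the diet groups. Bounds and pooled ratios were recomputed without each obese pig, which was added after seeing the data. The correlation of same-numbered samples' deviations was 0.0093 and -0.037 over 2 pairs.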

Additional observations from a re-analysis of the deposited data

How the results depend on the processing

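The comparison of foam-gated with other macrophage-gated nuclei called 54 genes. The count was 52 with RLE size factors, 54 at a mitochondrial share of at most 5%, 60 with 3 or more foam genes required, 43 with 4 or more macrophage genes and 78 at 2000 to 6000 UMIs, an alternative added after seeing the data. It was 351 with no filter on low counts, 134 with DESeq2, 111 with limma-voom, 91 without nuclei of 3 or more smooth muscle markers, 88 after thinning to 1000 UMIs and 170 against nuclei with 0 foam genes. It was 14 without presumed doublets, and 21 when CD163, CSF1R or MSR1 was also required, which was added after seeing the data. Leaving out 1 pig gave 3 to 94 calls, which were 94, 9 and 3 without obese replicates 1, 2 and 3. With no replicate block the count was 0, and 369 genes had an unadjusted p under 0.05. Between nuclei with exactly 2 and exactly 1 foam gene it was 0, and 136 of 5139 genes had an unadjusted p under 0.05. Under that setting EMILIN2 reversed to a log2 value of 0.14. Of 392 values of named genes under alternatives, 264 kept direction and call, 127 kept direction only and 1 reversed.

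The diet comparison called 52 genes. The count was 51 with RLE size factors, 38 without doublets, 52 at the mitochondrial limit and 42 with the receptors required. It was 479 with no filter, 258 with DESeq2, 11 with limma-voom (0 higher and 11 lower), 33 without smooth muscle markers (29 higher and 4 lower), 12 after thinning and 114 with a replicate block. Leaving out 1 pig gave 0 to 99 calls, which were 61, 99 and 30 without obese replicates 1, 2 and 3 and 0 without either control pig. The share differences kept their direction under every alternative run, from 1.77 to 7.85 points of all nuclei and from 45.1 to 73.4 points of macrophage-gated nuclei. The cause of these shifts was not tested. The 27 and 24 macrophage-gated nuclei of the control pigs limit what the diet comparison can show.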

Other observations

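Further called genes outside the naming rule, chosen here after their values were seen, were spread over several roles. GNPTAB, which starts the mannose 6-phosphate tag of lysosomal enzymes, had 252, 519.6 and 327 CPM in foam-gated nuclei of obese replicates 1 to 3, against 122, 160.4 and 111 CPM in the other macrophage-gated nuclei (log2 fold change 1.44, SE 0.25, edgeR adjusted p = 0.0386). ARSG, a lysosomal sulfatase, had 52.2, 231 and 261 CPM against 17.9, 61.8 and 90.2 CPM (1.71, SE 0.28, edgeR adjusted p = 0.0328). For GNPTAB the classes did not overlap, and for ARSG they did across pigs. PDCD1LG2, which encodes the immune checkpoint ligand PD-L2, had 123, 495 and 179 CPM against 35.9, 114 and 76.3 CPM (1.82, edgeR adjusted p = 0.0297). SDC2, a heparan sulfate proteoglycan, had 2202, 2280.3 and 3520.2 CPM against 1111, 732 and 1693 CPM (1.24, edgeR adjusted p = 0.0386). The potassium channel genes KCND2 and KCNN3 had log2 fold changes of 2.05 and 1.55 (edgeR adjusted p = 0.0241 and 0.036). HLA-DRA, a class II antigen chain with near-identical relatives, fell by 1.92 (21.8, 13.5 and 15.6 CPM against 73.6, 41.6 and 132 CPM, edgeR adjusted p = 0.0472).

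ANKH, which exports pyrophosphate or its precursor ATP, had 526, 879.9 and 775 CPM in foam-gated nuclei against 310.4, 417 and 236 CPM in the other macrophage-gated nuclei, and did not pass the test (1.16, edgeR adjusted p = 0.0703). In the diet comparison it had 461, 831 and 581 CPM in obese pigs against 23.3 and 0 CPM, a pooled ratio of 59.7 (counting interval 20.4 to 289) on 3 control counts, and of 38.1 (13.02 to 185) without obese replicate 2.

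At least 2 foam-cell genes were also found outside the macrophage gate, in 104, 764 and 34 nuclei of obese replicates 1 to 3 and in 4 and 0 nuclei of the control pigs. Their median depth was 1679, 1817 and 1179 UMIs in the obese pigs, below that of the members. Of these nuclei 28, 153 and 16 carried 2 macrophage panel genes, and 65, 426 and 15 carried 3 or more smooth muscle markers. In smooth muscle-gated nuclei the share with at least 2 foam-cell genes was 1.14%, 6.48% and 0.160% in the obese pigs and 0.0168% and 0% in the control pigs.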
